A study of Mus musculus with 4 samples.

Results

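Tumour cells secrete chemokines, cytokines and growth factors that draw in or sustain immune cells, feed macrophages and direct the growth of vessels. A set of 10 such genes is described here in CT26 cells, and all 10 were found by gene name among the 4295 genes of the joined tables. They encode 3 chemokines (Ccl5, Cxcl10 and Cxcl1), 2 cytokines that signal through the shared receptor chain gp130 (Il11 and Lif), the lymphocyte cytokine Il15, 2 ligands of the macrophage receptor CSF1R (Csf1 and Il34), the vascular growth factor Vegfa and the inflammatory factor Mif. CT26 is a transplantable colon carcinoma line from BALB/c mice, labelled wild type. The cells were grown in DMEM with 10% FBS and given either DMSO, the solvent, or 25 µM riluzole for 24 h, with 2 libraries in each group. Riluzole, prescribed in amyotrophic lateral sclerosis, lowers glutamate release, and the series title ties it to cGAS-STING signalling and PD-1 blockade. The tumour cells were in culture without a host, so the immune and vascular cells on which these factors act were not part of the system.

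Messenger RNA was sequenced, and the deposited tables hold the genes with a p-value under 0.05 in the authors' own comparison. The 10 genes are therefore genes already chosen for a difference between these libraries, and secreted factors outside the tables were not analysed here. Listed genes held 9191717 to 12989475 counts per library, out of library totals of 15803444 to 20562946 implied by the deposited FPKM values. Whether replicates grew as separate cultures is not stated in the labels, and the p-values below therefore speak of the spread among these 4 libraries, which may be technical. With 2 libraries against 2, a permutation of the samples cannot give a two-sided p below 0.33. Replicates of a group were not copies of one library: the chi-square per gene was 3.56 for the control pair and 3.20 for the riluzole pair, where sampling alone gives about 1. Of 8 carcinoma markers 4 were listed: Vim, which encodes the mesenchymal filament vimentin and ranked 71 of 4295 genes by control FPKM, and the keratin genes Krt18, Krt20 and Krt8, the last at only 3.36 to 17.7 normalised counts. All 4 were called higher with riluzole, where 41.3% of listed genes were, with a median log2 fold change of 0.73. The authors' adjusted values, cut at 0.05, kept 3 of the 4. Krt8 was the exception, with 4 reads in each control and 16 in each riluzole library. The summed level of the 4 was 34629 and 32623 normalised counts in the controls and 53523 and 54829 with riluzole. Vim alone gave 33588 and 31646 of the control sums and 51912 and 53272 of the riluzole sums. The sum thus describes Vim rather than the keratin genes. Of 19 markers of immune, endothelial and stromal cells 3 were listed, Cd68, Pdgfrb and Col1a1. Their summed level was 2890 and 2736 normalised counts in the controls and 2457 and 2301 with riluzole. Col1a1 gave most of it, 1943 and 1667 in the controls and 1493 and 1348 with riluzole. In FPKM the sums overlapped, at 33.5 and 33.6 in the controls and 34.3 and 32.8 with riluzole. Cd68, a lysosomal gene abundant in macrophages, rose 1.62-fold while Pdgfrb and Col1a1 fell, although Pdgfrb lost its call under DESeq2 scaling of the listed genes (log2 fold change -0.19; edgeR adjusted p = 0.0667). The part of either marker list in the results below was not tested. Ptprc, the pan-leukocyte marker, and the other markers were not analysed here.

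Chemokine and cytokine genes are classically switched on from promoters that bind interferon regulatory factors, NF-kB and AP-1, while Vegfa is the textbook target of hypoxia-inducible factors. RefSeq promoters (GRCm38.p6, 250 bases before to 50 after each start) were matched by symbol for 7 of the 10 genes, as 9 promoters; Ccl5, Il15 and Il34 were the other genes. Each was searched on both strands for GAAA, any 2 bases and GAAA again, the core of the interferon response element, for GGGA, any 2 bases and TTCC, a core of NF-kB sites, for TGANTCA, the AP-1 site, which is its own reverse complement, and for ACGTG, the core of the hypoxia response element. The stretches upstream of the start that held one of the first 3 motifs are shown so that genes that rose can be read beside genes that fell. Each is written 5′ to 3′ on the gene's strand, and capitals mark the motif matches.
Cxcl10 (rose; chr5:92348927-92349132, minus strand): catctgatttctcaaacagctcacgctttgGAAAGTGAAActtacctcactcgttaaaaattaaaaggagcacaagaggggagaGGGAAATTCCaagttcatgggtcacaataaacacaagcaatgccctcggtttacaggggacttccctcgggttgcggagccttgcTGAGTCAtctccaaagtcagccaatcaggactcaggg
Cxcl1 (rose; chr5:90891144-90891214, plus strand): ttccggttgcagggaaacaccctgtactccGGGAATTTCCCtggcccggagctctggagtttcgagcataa
Il11 (rose; chr7:4778203-4778269, minus strand): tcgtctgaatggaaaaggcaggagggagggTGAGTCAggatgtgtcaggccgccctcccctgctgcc
Lif (rose; chr11:4257318-4257376, plus strand): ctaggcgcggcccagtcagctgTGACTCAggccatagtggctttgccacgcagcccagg
Csf1 (fell; chr3:107760584-107760653, minus strand): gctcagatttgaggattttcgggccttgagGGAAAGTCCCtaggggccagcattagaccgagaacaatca
Vegfa (fell; chr17:46032480-46032549, minus strand): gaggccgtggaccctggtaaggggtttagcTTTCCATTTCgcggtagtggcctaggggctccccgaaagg

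Cxcl10 was the gene that held the interferon, NF-kB and AP-1 motifs together, starting 213, 159 and 74 bases upstream of the start. The capitals of Cxcl1 cover 2 overlapping NF-kB matches, one on each strand, 71 and 70 bases upstream. The same NF-kB core stood 154 bases upstream of Csf1, which fell, and the interferon core stood on the reverse strand 142 bases upstream of one Vegfa start, which also fell. Il11 and Lif each held the AP-1 site, 98 and 228 bases upstream. The NF-kB core was found in 3 of the 9 promoters and in 1.47% of the 32851 promoters in the table, the interferon core in 2 of the 9 and in 3.44%, and the AP-1 site in 3 of the 9 and in 7.81%. The hypoxia core occurred in 3 of the 9, one each of Cxcl1, Mif and Vegfa, and in 19.6% of all promoters. These matches describe letters in a window of the C57BL/6J reference and carry no measurement of binding.

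In the control cells the 10 transcripts spanned nearly the whole range of listed genes. On the FPKM scale, which divides counts by gene length and library total and so allows genes to be compared, Mif was the highest at 605 ± 11.8 FPKM (SD, n = 2), rank 42 of 4295. Csf1 followed at 206 ± 25.6 and Vegfa at 107 ± 0.986 FPKM, ranks 152 and 318. Lif (12.6 and 13.4 FPKM), Il11 (11.8 ± 0.236) and Il34 (8.75 ± 0.508 FPKM) formed a middle level. Cxcl10 (1.87 ± 0.104), Ccl5 (1.36 ± 0.130), Cxcl1 (1.12 ± 0.436) and Il15 (0.711 ± 0.0628 FPKM) were the lowest, with ranks from 3859 to 4082. The libraries of neighbouring genes in this order did not overlap, except that the control values of Ccl5 (1.27 and 1.45 FPKM) overlapped those of Cxcl1 (0.810 and 1.43).

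With riluzole the 3 abundant genes were lower and the 7 others were higher. The order changed at 2 places: Il11 (18.4 ± 1.26 FPKM) stood above Lif (17.1 ± 0.0132), and Ccl5 (6.34 ± 0.361) above Cxcl10 (5.08 ± 1.13). Neither pair overlapped between genes in the riluzole libraries. In riluzole replicate 2 the gaps were small, 17.5 against 17.1 FPKM for Il11 and Lif and 6.08 against 5.88 for Ccl5 and Cxcl10. Both changes of order belong to the FPKM scale, because Lif and Cxcl10 kept more reads in every library. Summed over the 7 genes that rose, the level went from 38.6 to 63.1 FPKM, and over the 3 that fell from 918 to 764 FPKM. Across the 10 genes control level and log2 fold change had a Spearman rho of -0.85, given as a description because the genes share libraries and depth. Over all 4295 listed genes the same rho was -0.35. Of listed genes with a mean normalised count from 20 to 100, 81.6% were higher, as were 3 of 3 of the genes described here. From 100 to 1000, 56.0% were higher, and 3 of 3. From 1000 to 5000, 27.1% were higher, while the 1 gene described here in that range, Lif, was higher. At 5000 and above, 24.9% were higher, and 0 of 3. The smallest listed change was 0.61 on the log2 scale in the lowest range and 0.07 in the highest, so a low gene could enter the tables only through a large change.

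**Figure D1:**
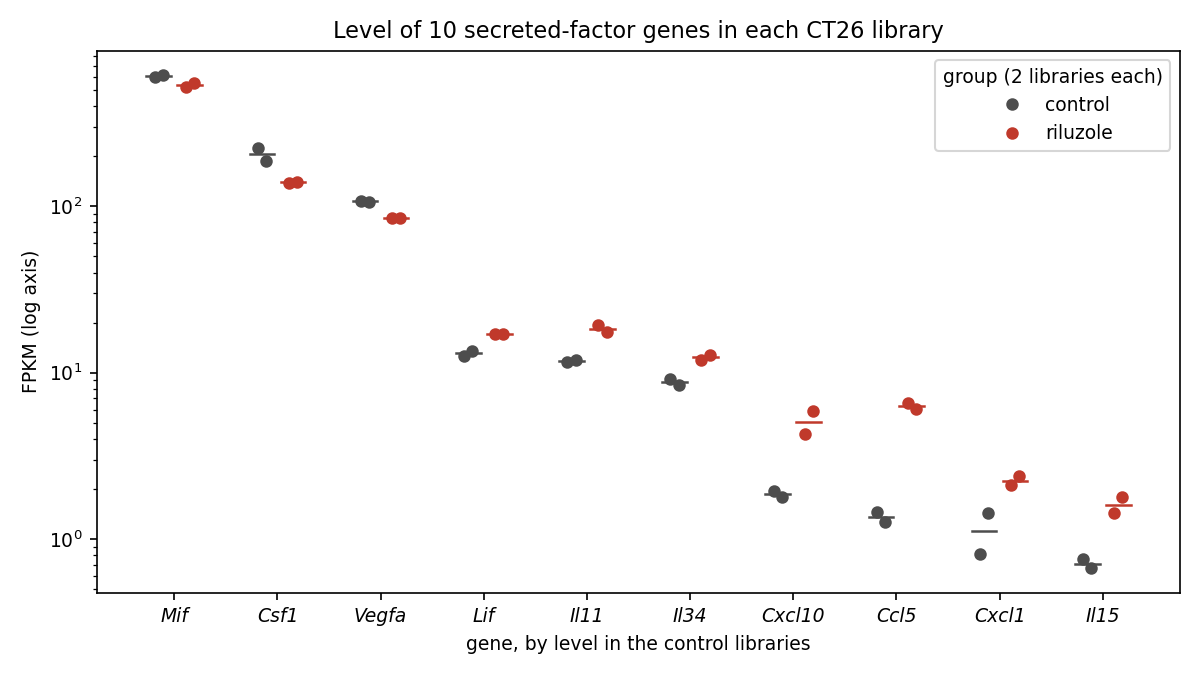
FPKM (log axis) of the 10 genes in each library, ordered by control level; points are libraries (2 control, 2 riluzole) and short lines are group means. Mif, Csf1 and Vegfa, above 100 FPKM in the controls, are lower with riluzole, and the 7 genes below 20 FPKM are higher, with no overlap between the groups.

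Counts were tested with edgeR's quasi-likelihood test, riluzole against control, with Benjamini-Hochberg adjustment over the 12601 genes that the deposited p-values imply were tested. Calls were made below an adjusted p of 0.05. All 10 genes were called, 7 higher and 3 lower. Because the tables were chosen on the same contrast, 99.5% of listed genes were called (41.3% higher, 58.2% lower). Only listed genes were open to a call here. Set against the 12601 implied tests, the calls made up 33.9% (14.1% higher, 19.8% lower). Nothing is read from the count of 10. Likewise the 2 groups of libraries did not overlap for any of the 10 genes, nor for 99.9% of listed genes. The authors' deposited table has an adjusted p under 0.05 for 6 of the higher and 3 of the lower genes, against 28.3% and 44.7% of all listed genes and 9.63% and 15.2% of the implied tests. In bulk RNA, more transcript per cell and more cells with the transcript cannot be told apart.

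Chemokines are small proteins that steer leukocytes, and Ccl5 and Cxcl10 had the largest fitted rises of the 10 genes. Ccl5 (chromosome 11, 83416604 to 83421344, minus strand, mm39), which encodes a chemokine that attracts T cells and monocytes, measured 24.1 and 21.0 normalised counts in the controls and 111 and 103 with riluzole. Both riluzole libraries were thus more than 4 times as high as either control. The rise was 4.77-fold (log2 fold change 2.25 ± 0.25, SE; edgeR adjusted p = 1.65e-08). It rested on few reads: 22 and 25 in the controls, with exact 95% Poisson intervals of 13.8 to 33.3 and 16.2 to 36.9, and 115 and 93 with riluzole, with intervals of 94.9 to 138 and 75.1 to 114. These intervals cover counting error only, and those of the control and riluzole libraries were far apart.

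Cxcl10 (chromosome 5, 92494497 to 92496748, minus strand) encodes an interferon-inducible ligand of CXCR3 that draws activated T cells. It measured 75.7 and 69.8 normalised counts in the controls and 170 and 234 with riluzole. The controls lay close together while riluzole replicate 2 stood well above riluzole replicate 1. The rise was 2.76-fold (log2 fold change 1.47 ± 0.18, SE; edgeR adjusted p = 8.22e-08). In the GENCODE M21 annotation an exon of Art3, on the opposite strand, overlaps the exons of Cxcl10 by 133 bases, and the sources used here do not say whether reads were counted by strand.

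Cxcl1 (chromosome 5, 91039100 to 91040974, plus strand), whose product attracts neutrophils through CXCR2, was the least secure rise of the 10. It measured 26.3 and 46.2 normalised counts in the controls and 69.7 and 78.6 with riluzole, so the controls differed from each other almost as much as the upper one differed from the riluzole libraries. The fitted change was 1.97-fold (log2 fold change 0.98 ± 0.26, SE; edgeR adjusted p = 0.00278), and the authors' deposited table gives an adjusted p of 0.0683. Without control replicate 1 the log2 fold change was 0.68 and the call was lost (edgeR adjusted p = 0.0566). Without control replicate 2 it was 1.48 (edgeR adjusted p = 0.00042).

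The 3 chemokines together went from 4.34 ± 0.203 to 13.7 ± 0.960 FPKM (SD, n = 2). Within that sum, Ccl5 made up 34.5% and 28.2% in the controls and 50.8% and 42.4% with riluzole. The ratio of Ccl5 to Cxcl10, which does not depend on the scaling of the libraries, was 0.748 and 0.707 in the controls and 1.54 and 1.03 with riluzole on the FPKM scale. On this scale Ccl5 thus stood above Cxcl10 in both treated libraries, by differing amounts. In riluzole replicate 2 the margin was within the counting error of the 93 Ccl5 reads (exact 95% Poisson interval 75.1 to 114). The order also rests on division by gene length. In reads the ratio was 0.657 and 0.441 with riluzole, so Cxcl10 had more reads in both treated libraries. Of the 34 other chemokine genes searched for by name, none was in the tables.

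Il15 (chromosome 8, 83058261 to 83129851, minus strand) encodes a cytokine that sustains natural killer cells and memory CD8 T cells, usually presented on the surface by its receptor chain IL-15RA. It measured 29.6 and 26.1 normalised counts in the controls and 57.1 and 70.8 with riluzole, a clear gap at a low level. The rise was 2.30-fold (log2 fold change 1.199 ± 0.27, SE; edgeR adjusted p = 0.000718), and the authors' deposited table gives an adjusted p of 0.0354. The reads behind it numbered 27, 31, 59 and 64. The receptor chain genes Il15ra, Il2rb and Il2rg were not in the tables and were not analysed here.

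Il11 and Lif belong to the interleukin-6 family, whose members signal through gp130 to STAT3. Il11 (chromosome 7, 4775372 to 4785858, minus strand), a cytokine of stromal and tumour growth, measured 418 and 429 normalised counts in the controls and 706 and 642 with riluzole. Each group was tight compared with the gap between them. The rise was 1.59-fold (log2 fold change 0.67 ± 0.08, SE; edgeR adjusted p = 1.82e-07). Lif (chromosome 11, 4207557 to 4222514, plus strand), named for its inhibition of leukaemia cells, measured 954 and 1010 normalised counts in the controls and 1306 and 1309 with riluzole. Its riluzole libraries were almost equal, and the rise was 1.33-fold (log2 fold change 0.41 ± 0.06, SE; edgeR adjusted p = 1.40e-06). Clcf1, another ligand of this family outside the 10 genes, rose 1.34-fold from 563 ± 2.30 to 756 ± 21.5 normalised counts (edgeR adjusted p = 3.93e-05). Il6st, which encodes gp130 itself, had a fitted log2 fold change of -0.15 (edgeR adjusted p = 0.0163). That value was 0.018 under DESeq2 scaling of the listed genes, and the call was lost without control replicate 1 (edgeR adjusted p = 0.183) or riluzole replicate 2 (0.332). Summed over Lif, Il11 and Clcf1, ligand transcripts went from 33.3 ± 0.844 to 46.7 ± 0.939 FPKM (SD, n = 2), and the share of Il11 went from 35.4% and 35.1% to 40.7% and 38.0%.

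Csf1 and Il34 encode the 2 ligands of CSF1R, the receptor on which macrophages depend, and they moved in opposite directions. Csf1 (chromosome 3, 107648364 to 107667785, minus strand) measured 20518 and 17154 normalised counts in the controls and 12913 and 12980 with riluzole. The controls were spread apart and the treated libraries nearly equal, both well below the lower control. The fall was to 0.688 of the control level (log2 fold change -0.54 ± 0.05, SE; edgeR adjusted p = 1.97e-09). The authors' deposited table gives a much larger adjusted p of 0.000246. The log2 fold change was -0.41 without control replicate 1 and -0.66 without control replicate 2. Il34 (chromosome 8, 111468461 to 111532556, minus strand) measured 309 and 284 normalised counts in the controls and 413 and 444 with riluzole. Both treated libraries lay well above both controls, and the rise was 1.45-fold (log2 fold change 0.53 ± 0.10, SE; edgeR adjusted p = 8.61e-05). An exon of Gm15895, on the opposite strand, overlaps Il34 by 75 bases in GENCODE M21. In FPKM the sum of both ligands fell from 215 ± 26.1 to 152 ± 0.982 (SD, n = 2). Il34 made up 3.91% and 4.28% of that sum in the controls and 7.93% and 8.44% with riluzole, so Csf1 remained the predominant transcript in every library.

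**Figure D2:**
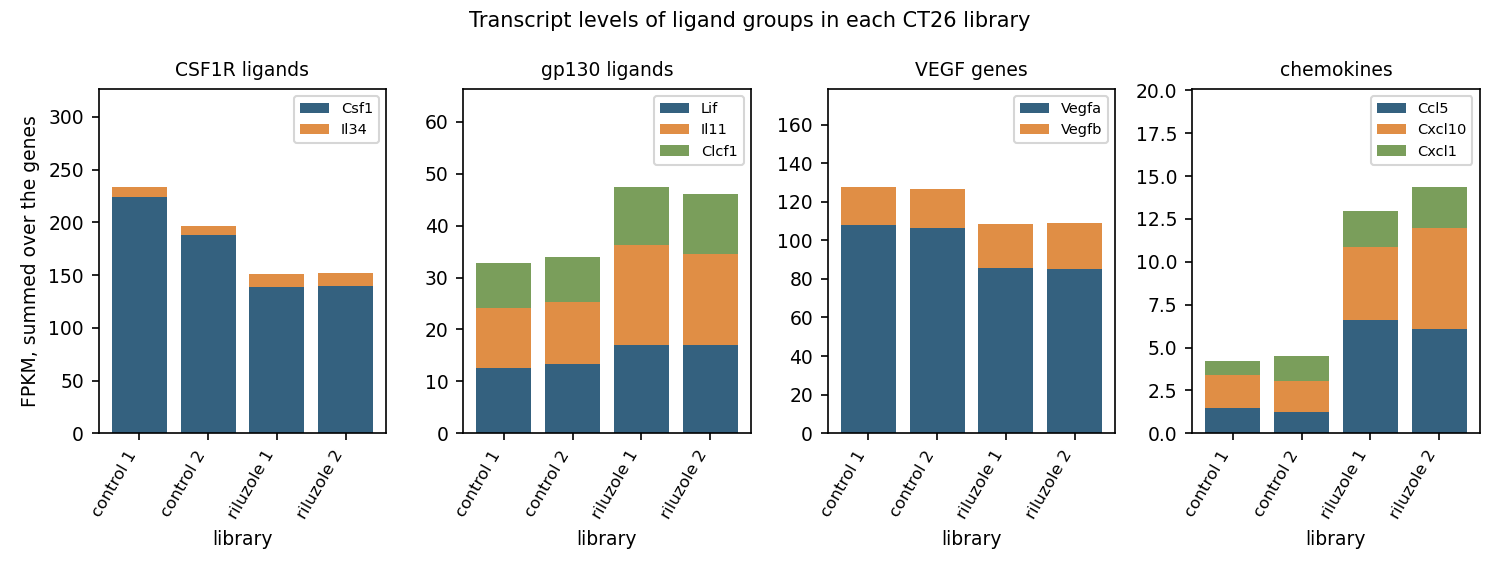
FPKM of listed ligands stacked by gene in each library, for the ligands of CSF1R, 3 ligands of gp130, 2 VEGF genes and the 3 chemokines; each panel has its own axis from 0. The CSF1R ligand sum is lower with riluzole through Csf1 while the small Il34 share is larger, and the gp130 and chemokine sums are higher.

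Vegfa (chromosome 17, 46327919 to 46343295, minus strand), the main growth factor of blood vessels, measured 8012 and 7885 normalised counts in the controls and 6451 and 6440 with riluzole. Both groups were tight and did not overlap. The fall was to 0.811 of the control level (log2 fold change -0.30 ± 0.04, SE; edgeR adjusted p = 3.53e-07). Vegfb, a relative that also binds VEGF receptor 1, had a fitted log2 fold change of 0.26 ± 0.08 (SE; edgeR adjusted p = 0.00928), with an adjusted p of 0.127 in the authors' deposited table. It was not called without riluzole replicate 2 (edgeR adjusted p = 0.0783). Its share of the summed FPKM of both genes was 15.4% and 15.8% in the controls and 21.2% and 21.7% with riluzole.

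Mif (chromosome 10, 75695187 to 75696074, minus strand) encodes a small inflammatory factor that binds CD74 and opposes glucocorticoids. It measured 7704 and 7897 normalised counts in the controls and 6877 and 7279 with riluzole, a gap of the same order as the spread between the riluzole libraries. The fitted level was 0.907 of control (log2 fold change -0.14 ± 0.04, SE; edgeR adjusted p = 0.00636). The call was lost without control replicate 2 (edgeR adjusted p = 0.0784) and without riluzole replicate 1 (0.163). TMM factors and DESeq2 size factors computed on the listed genes move the median log2 fold change of all listed genes up by 0.10 and 0.17. With them Mif stood at -0.043 and 0.025 and was not called (edgeR adjusted p = 0.88 and 1), while Csf1 stayed lower (-0.44 and -0.37) and Vegfa too (-0.20 and -0.14). In GENCODE M21, 4 other genes carry near-identical copies of the Mif transcript, so its reads could be divided among them.

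Receptors and binding partners of the 10 factors were searched for as a list of 24 genes, of which 5 were listed. Of these, 3 were called higher and 1 lower, where 41.3% and 58.2% of listed genes were. Sdc1, the proteoglycan syndecan-1, which binds Il34, rose 1.68-fold from 413 and 424 to 674 and 738 normalised counts (edgeR adjusted p = 2.07e-08). Nrp1, the co-receptor neuropilin-1 for Vegfa, rose 1.39-fold from 272 and 264 to 364 and 381 (edgeR adjusted p = 0.000472). Cd44, which acts with CD74 in Mif signalling, rose 1.26-fold from 9250 and 8858 to 11436 and 11287 (edgeR adjusted p = 1.36e-07). The decoy receptor gene Ackr2, with 0 counts in both controls and 1 and 8 with riluzole, was not called (edgeR adjusted p = 0.0548), and Il6st, described above, was the lower one. The median log2 fold change of the 5, Ackr2 among them, was 0.47, beside -0.19 over all listed genes. Among all listed genes the share that was higher fell with level, and Ackr2, Nrp1 and Sdc1 had means below 1000 normalised counts. The 41.3% and the -0.19 are therefore not the values at their level.

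Among 145 further chemokine, cytokine and growth factor genes, 18 were listed, and 16 were called higher and 2 lower, where 41.3% and 58.2% of listed genes were. Their median log2 fold change was 0.41. An adjusted p under 0.05 stands beside 12 higher and 2 lower ones in the authors' deposited table. Without 1 library at a time, 11 to 15 were called higher. Direction went with level among all listed genes: 81.6% were higher at mean normalised counts of 20 to 100 and 56.0% at 100 to 1000. From 1000 to 5000 the share was 27.1%. Most of these 18 factors had means below 1000, so the 41.3% is not the share at their level. Btc, the EGF receptor ligand betacellulin, showed the largest rise, from 249 and 262 to 735 and 787 normalised counts (2.97-fold; edgeR adjusted p = 2.68e-14). Its relative Hbegf rose 1.37-fold from 3735 and 3395 to 4799 and 4921 (edgeR adjusted p = 3.07e-09). Ereg, another EGF receptor ligand, changed little in fold at a high level, from 8084 and 8504 to 8863 and 9149 (log2 fold change 0.12; edgeR adjusted p = 0.0228), and lost its call when control replicate 1 (0.381) or riluzole replicate 2 (0.21) was left out.

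Among the other growth factors named by size of change, Bmp2 rose 1.76-fold (edgeR adjusted p = 5.51e-06), Tgfb3 1.67-fold (1.87e-05) and Tgfb1 from 699 and 641 to 878 and 929 normalised counts (1.48e-05). Ccn2, a matricellular growth factor, rose 1.32-fold (edgeR adjusted p = 8.75e-05). Gdf11 had a fitted log2 fold change of 1.17 but only 25.2 and 35.3 normalised counts in the controls and 89.1 and 47.6 with riluzole. Without riluzole replicate 1 its log2 fold change was 0.62 and not called (edgeR adjusted p = 0.284). Flt3l, the growth factor of dendritic cell precursors, had a fitted log2 fold change of 0.69, which was 0.34 without control replicate 1 (edgeR adjusted p = 0.249); it was also not called without riluzole replicate 2 (0.112). Fgf10 had a fitted log2 fold change of 0.47, which was 0.36 and not called without riluzole replicate 2 (edgeR adjusted p = 0.103).

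The 2 lower genes among these 18 were Tnfsf18 and Hdgf. Tnfsf18, the ligand of the T cell costimulatory receptor GITR, measured 65.8 and 60.5 normalised counts in the controls and 14.5 and 16.6 with riluzole. It fell to 0.248 of its control level (edgeR adjusted p = 5.37e-06), on 15 reads in each riluzole library. The growth factor Hdgf fell to 0.810 of a high control level, from 12877 and 12781 to 10429 and 10353 normalised counts (edgeR adjusted p = 3.66e-07).

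**Figure D3:**
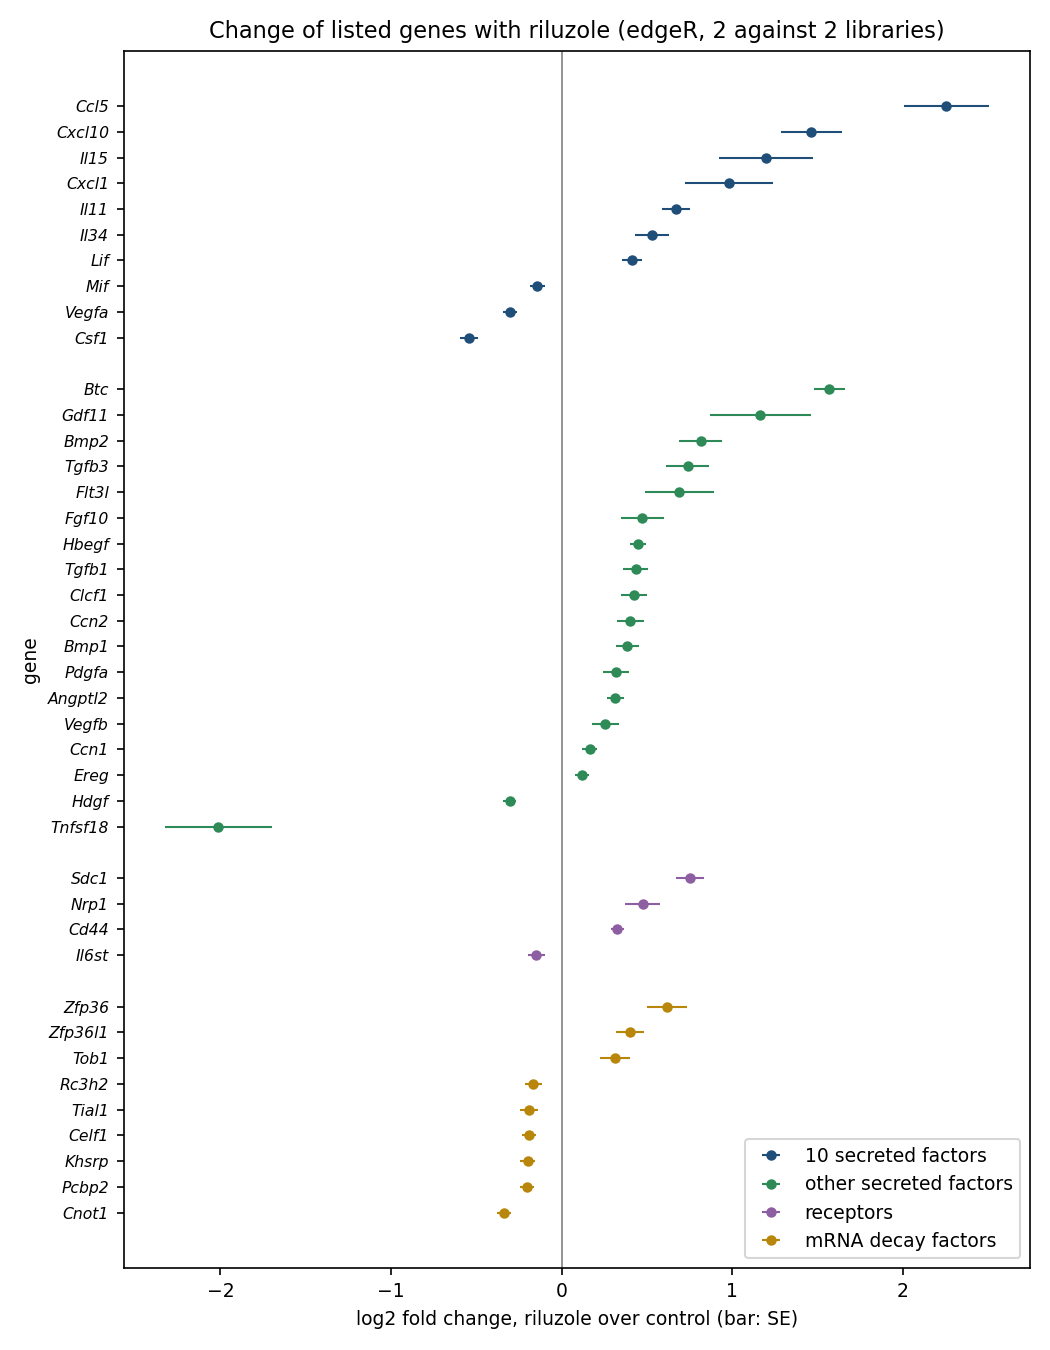
Log2 fold change of riluzole over control (horizontal axis) for the 10 secreted factors, the other listed secreted factors, listed receptors and listed cytokine mRNA decay factors; points are edgeR estimates from 2 against 2 libraries and bars are SE. Ccl5 lies furthest to the right at 2.25 and Tnfsf18 furthest to the left at -2.01; Ackr2, with no control counts, is not drawn.

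The genes whose values over the 4 libraries lay nearest to those of 3 of the factors were found by Euclidean distance between centred log2 normalised counts, among protein-coding listed genes with a mean of at least 100. Nearest to Ccl5 were Gbp2b, Phf11d and Oas3, at distances of 0.169, 0.257 and 0.289. Nearest to Cxcl10 were Isg15, Ifi44 and Parp9, at 0.210, 0.213 and 0.228. Nearest to Csf1 were Znhit3, Ccdc120 and Pole, at 0.0471, 0.0569 and 0.0688. With 4 libraries, these distances mostly express the size of the change and the spread between replicates.

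Listed genes near the factors on the chromosome were looked up as well. Within 250 kb, by the deposited mm39 coordinates, 9 of the 10 genes had 27 listed neighbours in all, of which 13 had a fitted change in the direction of the factor and 19 were lower, where 2515 of the 4295 listed genes were lower. The nearest neighbour went the factor's way for 3 of the 9. Beside Ccl5, Taf15, at 19.0 kb, had a log2 fold change of -0.44 (edgeR adjusted p = 2.95e-09). Beside Cxcl10, Sdad1 (-0.32; edgeR adjusted p = 4.13e-06) and Nup54 (-0.27; 0.000253) fell, and Nup54 lost its call under DESeq2 scaling of the listed genes (-0.11; edgeR adjusted p = 0.258). Sf3a1 fell beside Lif (-0.58; edgeR adjusted p = 2.75e-11) and Inpp4b beside Il15 (-0.62; 0.000425). Ereg, described above, was the one listed neighbour of Cxcl1. Ahcyl1, beside Csf1, fell with it (-0.24; edgeR adjusted p = 1.45e-05), although under DESeq2 scaling of the listed genes its log2 fold change was -0.075 and not called.

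The 10 changes were recomputed under 12 other settings, which are the test, the scaling, the filter, the adjustment, a replicate block and the removal of each library. For 8 of the genes, all but Cxcl1 and Mif, every setting gave the same direction and an adjusted p under 0.05. The range of the log2 fold change was 2.15 to 2.42 for Ccl5, 1.22 to 1.69 for Cxcl10, 1.04 to 1.37 for Il15, 0.60 to 0.84 for Il11, 0.47 to 0.70 for Il34, 0.37 to 0.58 for Lif, -0.66 to -0.37 for Csf1 and -0.33 to -0.14 for Vegfa.

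**Figure D4:**
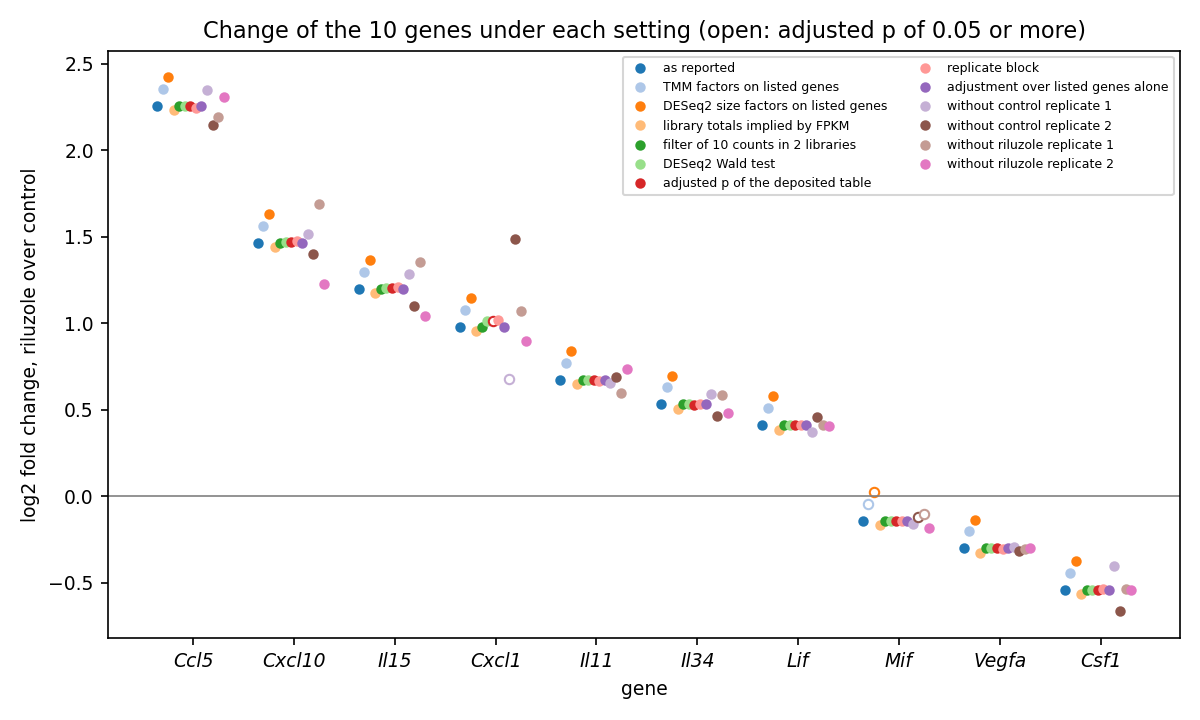
Log2 fold change of riluzole over control (vertical axis) of the 10 genes as reported and under 12 other settings; filled points have an adjusted p under 0.05 and open points do not. Open points occur for Cxcl1, under 2 settings, and for Mif, under 4, where one value lies above 0.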

How the data were processed

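PolyA RNA of 4 CT26 libraries (2 DMSO, 2 riluzole) was sequenced; groups and replicate numbers come from the labels. Per the submitters' processing notes, HISAT2, featureCounts 1.5.0-p3, DESeq2, edgeR and build mm39 were used; the sources used here do not give the annotation release, strandedness or settings. The deposited tables hold a raw read count for every listed gene and library, per the file headers. They also hold a normalised signal, which the authors made with a single divisor for each library: 0.911 and 1.19 in the control group, 1.03 and 0.904 in the treated group. FPKM in the deposited tables is the count scaled to gene length and to the library total, as tested on the values. The authors' own comparison gives a log2 fold change with its p-value and adjusted p; the sources used here do not name its tool.

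The tables were joined (4295 genes, all with p under 0.05). Counts were tested in R 4.3.3 with edgeR 4.0.16 (quasi-likelihood F test, no covariates, no filter, effective library sizes from the deposited size factors), because scaling factors computed on selected genes are shifted. SE is the log2 fold change divided by the square root of F. Benjamini-Hochberg adjustment ran over 12601 tests, the number implied by deposited p and adjusted p for 4218 genes (within 0.5 for 3648). The tagwise spread was estimated on selected genes only (median trended dispersion 0.000932), so p-values can be too small. The deposited adjusted p is given beside some of the less secure calls. Where it is not given, it is 0.0533 for Gdf11, 0.0708 for Fgf10, 0.0948 for Flt3l and 0.123 for Il6st. All 10 genes passed a filter of 10 counts in 2 libraries. Alternatives were DESeq2 1.42.0, TMM and DESeq2 size factors on the listed genes, library totals implied by FPKM, that filter, adjustment over listed genes alone, the deposited adjusted p, a replicate block and removal of each library.

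The 10 genes and the lists were chosen with earlier results of these data known. Named besides the 10 are called genes of the lists whose normalised counts average 20 or more (at most the 8 largest changes per list), the nearest 2 listed genes within 250 kb, and the 3 nearest in pattern to Ccl5, Cxcl10 and Csf1; some of these are left unnamed. Vegfb, Hdgf, Ackr2 and the grouping of ligands by receptor were chosen after their values were seen. Copies and overlaps were looked up by gene identifier in GENCODE M21 (BLAST+ 2.17.0, at least 95% identity over 200 bases or over the greater part of the transcript; bedtools 2.31.1, at least 50 bases). Promoter sequences are from RefSeq, GRCm38.p6, and were not compared with mm39 coordinates. Figures were made with Python 3.11.15 and matplotlib 3.10.9.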

Additional observations from a re-analysis of the deposited data

How the results depend on the processing

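With TMM factors and DESeq2 size factors computed on the listed genes, 1656 and 1042 genes were called lower instead of 2501, and 51.8% and 63.1% of calls were higher instead of 41.5%. Mif then stood at -0.043 and 0.025. With DESeq2 size factors Il6st stood at 0.018, Furin at 0.022, Mmp14 at 0.028, and Sf3b3 and Gtpbp2, neighbours of Il34 and Vegfa, at 0.054 and 0.066, all above 0 instead of below. No receptor (0 instead of 1) was called lower with either scaling, with DESeq2's test or by the deposited adjusted p, by which Cxcl1 (1.02) was also not called. Leaving out each library in turn gave 1518 to 1632 genes called higher and 2144 to 2305 lower, 6 to 7 and 2 to 3 of the 10 genes, and 0 to 1 receptors lower. The log2 fold change then ran from 0.68 to 1.48 for Cxcl1 and from -0.18 to -0.10 for Mif. With the replicate block, 1763 genes were higher and 2510 lower, 7 and 3 of the 10 genes, 16 and 2 other secreted factors and 3 and 1 receptors; the block changed no call among the 10. Deviations of same-numbered libraries had a correlation of 0.09 over 4040 genes. With 2 libraries a group, this value cannot show whether the shared numbers pair the libraries. The cause of these differences was not tested. Depth limits Ccl5, Cxcl1 and Il15 most, with 22 to 115 reads a library.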

Other observations

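Cytokine transcripts are short-lived, and proteins that bind their AU-rich ends decide how long they last. Of 17 genes for such decay and stability factors, 9 were listed, 3 called higher and 6 lower, where 41.3% and 58.2% of listed genes were. The higher ones included Zfp36 and Zfp36l1, which encode the decay factors tristetraprolin and its relative. Zfp36 measured 222 and 189 normalised counts in the controls and 324 and 301 with riluzole (1.53-fold; edgeR adjusted p = 0.000104), and Zfp36l1 measured 530 and 652 against 787 and 784 (1.32-fold; 0.000241). Cnot1, the scaffold of the deadenylase complex that these decay factors recruit, fell from 5480 and 5272 to 4271 and 4237 (log2 fold change -0.34; edgeR adjusted p = 1.08e-07). Khsrp, another decay factor, and Pcbp2 and Celf1, which bind RNA, had fitted log2 fold changes of -0.20, -0.20 and -0.19, and were not called with TMM or DESeq2 size factors over the listed genes, where the 3 values lay between -0.10 and -0.03 with the sign kept.

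Of 10 genes for the release of membrane-bound factors, 3 were listed. Rhbdf2, the iRhom2 gene that carries the sheddase ADAM17 to the surface, rose 1.18-fold from 1299 and 1237 to 1493 and 1508 normalised counts (edgeR adjusted p = 0.000447). The proteases Furin and Mmp14 had fitted log2 fold changes of -0.14 each, which became 0.022 and 0.028 under DESeq2 scaling of the listed genes. Both calls were lost when single libraries were left out, for example riluzole replicate 2 (edgeR adjusted p = 0.0815 and 0.0637), and the adjusted p is 0.118 and 0.101 in the authors' deposited table.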
